A study of Homo sapiens with 6 samples.

Results

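The sarcomeric myosin genes followed here are 7 heavy chain genes (MYH1, MYH2, MYH3, MYH4, MYH8, MYH7 and MYH7B) and 3 light chain genes (MYL1, MYL4 and MYLPF, which the annotation lists as MYL11). Open chromatin at these genes was measured by ATAC-seq, in which the Tn5 transposase cuts accessible DNA. The cells were RH30, an established fusion-positive rhabdomyosarcoma line. The peaks of 6 libraries were merged into 105569 regions, and a region was assigned to a gene when its highest summit lay in the gene body or within 50 kb of it. This gave 61 regions, with 1 region that met the rule for both MYH4 and MYH8 counted once. The 3 vector libraries came from cells transduced with Cas9 and a scramble guide. The 3 MyoD-deleted libraries came from cells transduced with Cas9 and guides against MyoD, so that all cells in the comparison carried Cas9. No source used here describes the cells behind these libraries as single clones, and the paper calls them RH30 in some places and RH30-SR, with a super repressor of NF-κB, in others.

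Each myosin motor of the sarcomere is built from heavy chains, whose heads split ATP and pull on actin and whose rods pack into the thick filament, and from light chains that wrap around the neck of each head. Developing muscle uses the embryonic chain MYH3 and the perinatal chain MYH8, fast adult fibres use MYH1, MYH2 and MYH4, and slow fibres and the heart ventricle use MYH7. MyoD is a basic helix-loop-helix factor that drives muscle differentiation and binds E boxes, short sites of the form CANNTG.

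The sequences of 6 regions on which the results turn are given first, as 201 bp of the plus strand of GRCh38 centred on the highest summit. The first 4 lost summit height in MyoD-deleted libraries and the last 2 gained it. Of the first 4, only the MYH3 region also passed the test by rank of fold enrichment that is explained below. Capitals mark the E box CAGCTG, the sites CATTCC or GGAATG (the core of an MCAT element, bound by TEAD factors) and TGANTCA. The last pattern takes in the core of an AP-1 site, which is TGAGTCA on either strand, and also other sequences.
MYH3, past the 3′ end (chr17:10625080-10625280): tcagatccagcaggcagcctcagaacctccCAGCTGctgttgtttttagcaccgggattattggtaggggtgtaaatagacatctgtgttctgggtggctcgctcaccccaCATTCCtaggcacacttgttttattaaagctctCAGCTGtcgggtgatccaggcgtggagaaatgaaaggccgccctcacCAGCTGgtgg
MYH8, past the 3′ end (chr17:10384317-10384517): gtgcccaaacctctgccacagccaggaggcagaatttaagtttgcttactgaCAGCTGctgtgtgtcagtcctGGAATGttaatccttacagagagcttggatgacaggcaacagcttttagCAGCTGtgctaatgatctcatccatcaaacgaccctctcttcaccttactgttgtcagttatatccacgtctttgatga
MYH7, at the 5′ end (chr14:23435803-23436003): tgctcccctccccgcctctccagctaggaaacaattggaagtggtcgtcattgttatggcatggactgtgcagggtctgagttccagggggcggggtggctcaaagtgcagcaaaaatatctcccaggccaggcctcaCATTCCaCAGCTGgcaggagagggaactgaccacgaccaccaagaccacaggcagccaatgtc
MYL4, upstream (chr17:47197940-47198140): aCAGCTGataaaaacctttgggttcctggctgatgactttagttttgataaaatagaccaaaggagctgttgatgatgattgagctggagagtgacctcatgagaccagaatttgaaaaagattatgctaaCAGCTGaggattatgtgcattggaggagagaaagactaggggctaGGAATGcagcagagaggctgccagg
MYL4, past the 3′ end (chr17:47240122-47240322): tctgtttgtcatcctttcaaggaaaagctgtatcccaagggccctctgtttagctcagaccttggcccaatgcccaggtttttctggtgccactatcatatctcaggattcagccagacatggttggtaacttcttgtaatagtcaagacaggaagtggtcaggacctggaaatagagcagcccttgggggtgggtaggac
MYL4, in ITGB3 (chr17:47267445-47267645): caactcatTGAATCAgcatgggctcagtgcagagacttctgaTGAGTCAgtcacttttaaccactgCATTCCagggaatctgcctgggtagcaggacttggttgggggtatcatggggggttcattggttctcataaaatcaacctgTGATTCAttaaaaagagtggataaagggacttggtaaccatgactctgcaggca
The MYH3, MYH8, MYH7 and MYL4 upstream windows hold 3, 2, 1 and 2 copies of CAGCTG in that order. The last 2 windows hold none. The first 4 also all hold CATTCC or GGAATG, which lay in only 6 of the 10 myosin regions lower by rank or height. The window in ITGB3 holds 3 copies of TGANTCA.

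The libraries held between 63140 and 80608 peaks, and the peak lists gave no read totals. Depth was therefore followed by the smallest background of a library, which was 2.22 to 3.41 fragments in vector and 2.27 to 2.35 in MyoD-deleted libraries, with vector replicate 1 the highest. Rank correlations over shared regions were 0.901 to 0.936 within groups and 0.797 to 0.857 between groups. A region at the 5′ end was called in all 6 libraries for 6 of 7 muscle lineage genes (MYOD1, MYOG, DES, CDH15, CHRNA1 and MYF5), and MYF6 had none. Of 6 genes of other cell types, PTPRC, CD3E, PECAM1 and ALB had no such region in any library, EPCAM had a region in 5 and GFAP in 3. At the 5′ end of MYOD1, the targeted gene, the rank of fold enrichment was 61.9 ± 3.29 percentiles (SD, n = 3) in vector libraries, against 53.7 ± 3.62 (SD, n = 3) after MyoD deletion (exact two-sided permutation test, p = 0.1, the smallest that 3 libraries against 3 allow). The labels name the 3 libraries of a group as biological replicates and give no separate cultures, so p-values measure the spread between these libraries.

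Of the 61 myosin regions, 38 were called in all 6 libraries, 1 was gained (called in 3 of 3 MyoD-deleted and in 0 of 3 vector libraries), 1 was lost (the reverse) and 21 were called in 1 to 5 libraries in another pattern. Over all regions, 4.56% were gained and 1.78% were lost. The 10 genes differed widely in how much open chromatin surrounded them. MYH7B had 15 regions, MYL4 had 13, MYH7 had 11, MYLPF had 9, MYH3 had 6, MYL1 had 5, MYH8 had 2 and MYH4 had 1, while MYH1 and MYH2 had 0. Of 20033 protein-coding genes, 745 (3.72%) had no region under the same rule, and the median gene had 9.

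**Figure D1:**
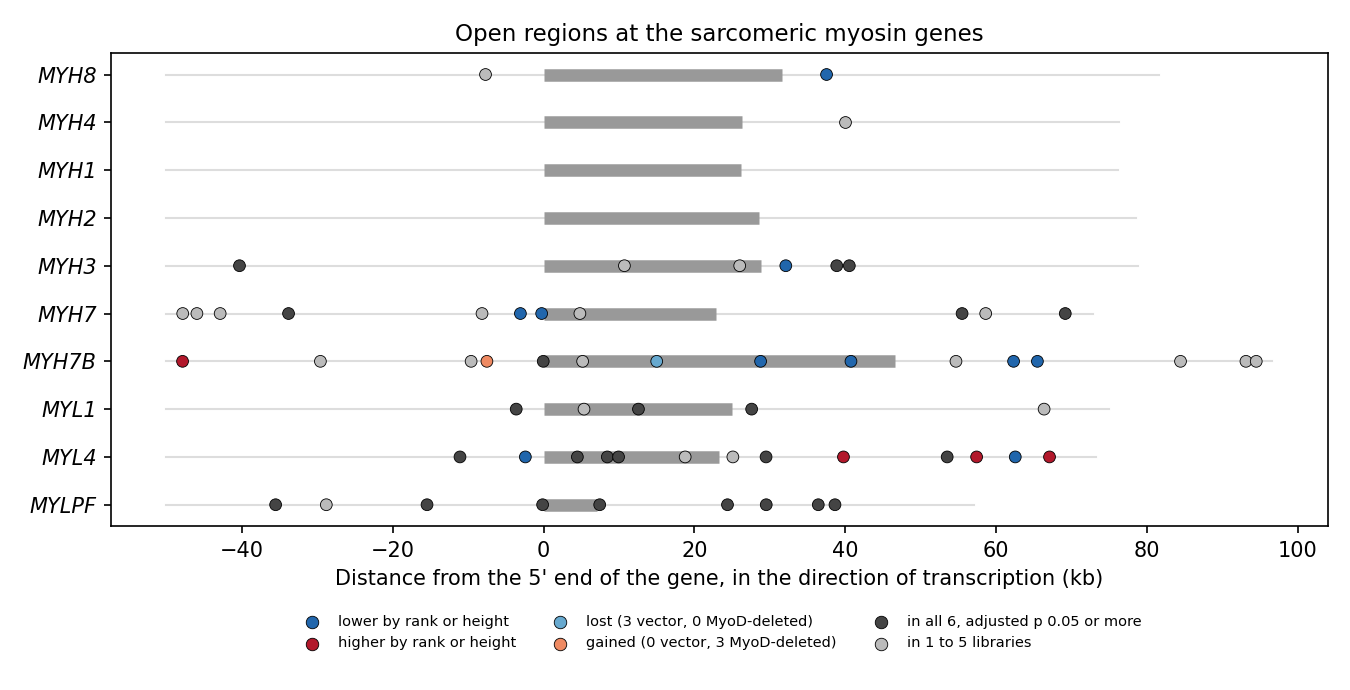
Regions of the 10 myosin genes, placed by the distance of the highest summit from the 5′ end of the gene in the direction of transcription (kb). Thick bars are gene bodies, thin lines the 50 kb flanks, and points are regions coloured by whether they were lower, higher, lost or gained in MyoD-deleted libraries, with MYH1 and MYH2 empty.

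Genes also differed in whether their 5′ ends were open. A region called in all 6 libraries had its summit 243 bp upstream of the 5′ end of MYH7, 35 bp upstream of MYH7B and 118 bp upstream of MYLPF. The latter pair of regions also covered the 5′ ends of divergent neighbours, GSS for MYH7B and TBC1D10B for MYLPF. For MYL4 the nearest summit to the 5′ end of the gene lay 2406 bp upstream, and another region inside the gene had its summit 127 bp upstream of the start of an annotated transcript. For MYL1 the nearest summit lay 3618 bp upstream. For the other heavy chains of chromosome 17 the nearest summit was 7.69 kb away for MYH8, 10.7 kb away for MYH3 (called in 3 libraries), 39.9 kb for MYH4, 67.1 kb for MYH2 and 88.9 kb for MYH1. A stretch of 187 kb that holds MYH4, MYH1 and MYH2 had no peak in any library.

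Regions called in all 6 libraries were compared in 2 ways, each with limma and Benjamini-Hochberg adjustment over 47885 regions. The rank compares the fold enrichment of a summit over its local background, ranked within a library. The summit height compares the fragments stacked at the summit with the smallest background of the library, as a log2 value centred on the median region of that library. By rank, 3 of the 38 myosin regions were higher in MyoD-deleted libraries and 2 were lower at an adjusted p under 0.05, where 4.12% of all regions were higher and 4.67% lower. By summit height, 4 were higher and 9 were lower, where 11.4% of all regions were higher and 12.8% lower. Of the 38 regions, 11 had all 3 MyoD-deleted heights below all 3 vector heights and 6 had them above, where the shares of all regions were 18.1% and 19.8%. The median change of the 38 regions was −3.14 percentile points by rank and −0.02 by log2 height, beside −0.08 percentile points and 0.04 over all regions. Centring lowered every log2 height difference by 0.19, and without it 5 myosin regions were higher and 8 lower, where the shares of all regions were 24.7% and 8.03%. In bulk libraries, fewer cells with an open region and less opening in each cell cannot be told apart. The count of lower regions thus depended on the measure, and each region past either test is given below with both.

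Heavy and light chain genes were also counted apart. Of 16 tested heavy chain regions, 8 were lower and 1 was higher by height, and 1 was lower and 0 were higher by rank. Of the 8, MYH7B had 4 and MYH7 had 2. Of 22 tested light chain regions, 1 was lower and 3 were higher by height, and 1 was lower and 3 were higher by rank. Over all tested regions, 12.8% were lower and 11.4% higher by height, and 4.67% were lower and 4.12% higher by rank. The shares lower by rank, 6.25% of heavy and 4.55% of light chain regions, were thus near that of all regions. Without centring, 7 heavy chain regions were lower and 1 higher by height, and 1 light chain region was lower and 4 were higher. Over all tested regions, 8.03% were then lower and 24.7% higher. The median change in log2 height was −0.58 for heavy chain and 0.02 for light chain regions. The difference between these sets of regions was not tested.

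**Figure D2:**
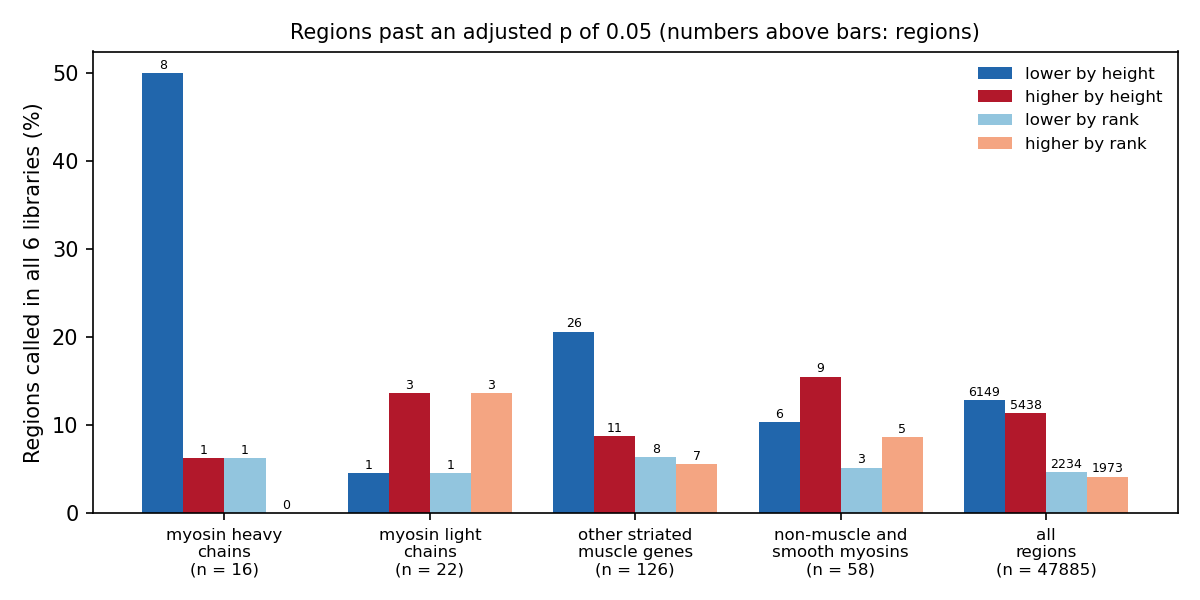
Share of regions called in all 6 libraries (y axis, %) that were lower or higher in MyoD-deleted libraries at an adjusted p under 0.05, by summit height or by rank, with the number of regions above each bar. The tallest bar is the 8 of 16 heavy chain regions that were lower by height.

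The largest fall among the myosin regions, by rank and by height, was beside MYH3, the embryonic heavy chain gene (ENSG00000109063.15, chromosome 17, 10628526 to 10657309, minus strand). An intergenic region at 10624681 to 10625437, with its summit 3.35 kb past the 3′ end, had 70, 43 and 39 fragments at the summit in vector replicates 1, 2 and 3. It had 20, 10 and 24 in MyoD-deleted replicates 1, 2 and 3, all below every vector library. Its fold enrichment over the local background was 13.9, 10.7 and 9.12 in vector libraries, against 6.43, 3.36 and 7.47 in MyoD-deleted libraries. The rank fell from 70.8 ± 18.8 to 17.6 ± 14.1 percentiles (SD, n = 3 each; adjusted p = 0.0292 from limma), and the log2 height fell by 1.47 ± 0.28 (SE; adjusted p = 0.000961 from limma). The height stayed past the threshold with any library left out. The rank did not when vector replicate 1, vector replicate 2 or MyoD-deleted replicate 2 was left out (adjusted p = 0.0623, 0.0736 and 0.067 from limma). The other 3 regions of MYH3 called in all 6 libraries did not pass either test, with log2 height changes of 0.01 to 0.13. They included the region with the highest rank near this gene, at the 5′ end of ADPRM 40.3 kb upstream.

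MYH8, the perinatal heavy chain gene (ENSG00000133020.4, chromosome 17, 10390322 to 10421950, minus strand), had its most enriched region 5.91 kb past its 3′ end, at 10383797 to 10385115. The vector libraries had 76, 46 and 69 fragments at the summit and the MyoD-deleted libraries had 31, 33 and 36, again without overlap. The log2 height fell by 0.84 ± 0.18 (SE; adjusted p = 0.00204 from limma), and the rank changed by −17.2 percentile points (adjusted p = 0.092 from limma). The summit lies 1261 bp from the nearest annotated transcript start, that of a long non-coding RNA antisense to the myosin cluster. The nearest protein-coding 5′ end is that of MYH13, 11287 bp away, while that of MYH8 is 37.5 kb away. The other region of MYH8, 7.69 kb upstream and also within 50 kb of MYH4, was called in all vector libraries with 31, 24 and 17 fragments. It was called in MyoD-deleted replicate 1 alone of its group, with 10 fragments, and so was not counted as lost.

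MYH7, the slow and cardiac β heavy chain gene (ENSG00000092054.13, chromosome 14, 23412740 to 23435660, minus strand), was lower by height at both regions next to its 5′ end. At the 5′ end itself (23435476 to 23436559) the vector libraries had 190, 114 and 120 fragments and the MyoD-deleted libraries had 57, 76 and 61. The centred log2 height fell from 1.04 ± 0.18 to 0.01 ± 0.18 (SD, n = 3 each), a change of −1.03 ± 0.15 (SE; adjusted p = 6.35e-05 from limma). The region 3.06 kb upstream (23437887 to 23439207) had 142, 90 and 124 fragments in vector and 48, 50 and 61 in MyoD-deleted libraries. Its log2 height changed by −1.08 ± 0.15 (SE; adjusted p = 3.87e-05 from limma). In neither region did the heights of the groups overlap.

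By rank the same MYH7 regions did not pass, with changes of −8.63 and −7.13 percentile points (adjusted p = 0.376 and 0.384 from limma). Fold enrichment divides the summit by its local background, which was lower too and nearly the same at both regions. That background may include fragments of the regions themselves, and why the rank did not pass was not tested. The local background at the 5′ end was 26.1, 16.8 and 18.7 fragments in vector libraries, against 9.18, 9.55 and 9.38 in the MyoD-deleted libraries. In multiples of the smallest background of the library, that was 6.82 to 7.65 in vector libraries and at most 4.20 in MyoD-deleted libraries. The most enriched region of MYH7, at the 5′ end of NGDN 33.8 kb upstream, had heights that differed by 0.04 (adjusted p = 0.81 from limma).

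MYH7B, a heavy chain gene related to MYH7 (ENSG00000078814.19, chromosome 20, 34955810 to 35002437, plus strand), was open at the 5′ end it shares with GSS in all libraries. That region had 352 to 500 fragments in vector and 396 to 470 in MyoD-deleted libraries, with a log2 height change of 0.11 ± 0.09 (SE; adjusted p = 0.412 from limma). It was also the most enriched region of the gene. Inside the gene, the region in intron 29 (34996025 to 34997179) had 275, 148 and 180 fragments in vector and 109, 126 and 110 in MyoD-deleted libraries. Its log2 height changed by −0.69 ± 0.13 (SE; adjusted p = 0.000614 from limma) and its rank by −16.0 percentile points (adjusted p = 0.123 from limma). The region in intron 10 changed by −0.65 in log2 height (adjusted p = 0.0078 from limma), which did not pass without centring (adjusted p = 0.0569) or without vector replicate 2 (adjusted p = 0.0674). Its rank changed by −9.94 percentile points (adjusted p = 0.0826 from limma). A further 2 lower regions lay past the 3′ end in TRPC4AP, a neighbouring gene, in intron 9 and exon 9, with log2 height changes of −0.61 and −0.89 (adjusted p = 0.000442 and 0.000147 from limma). Neither passed by rank, where their changes were 0.138 and −5.32 percentile points (adjusted p = 0.991 and 0.241 from limma). Their local background was lower too, in multiples of the smallest background of the library. In intron 9 it was 8.12 to 9.35 in vector and 5.64 to 6.04 in MyoD-deleted libraries. In exon 9 it was 7.92 to 9.02 in vector and 5.42 to 5.90 in MyoD-deleted libraries.

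In the same neighbourhood of MYH7B, 1 region was lost, 1 was gained and 1 was higher by height. The lost region, in intron 2 of MYH7B, had 25, 19 and 27 fragments in the vector libraries. The gained region, in intron 2 of GSS 7.51 kb upstream, had 25, 40 and 25 fragments in the MyoD-deleted libraries. A library without a call may still have held fragments there, below the peak caller's threshold. The higher region, in intron 2 of ACSS2 47.9 kb upstream, changed by 0.46 in log2 height (adjusted p = 0.0199 from limma) and did not pass when vector replicate 2 or 3, or MyoD-deleted replicate 1 or 3, was left out (adjusted p = 0.0609 to 0.0934). Its rank changed by 7.42 percentile points (adjusted p = 0.318 from limma).

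**Figure D3:**
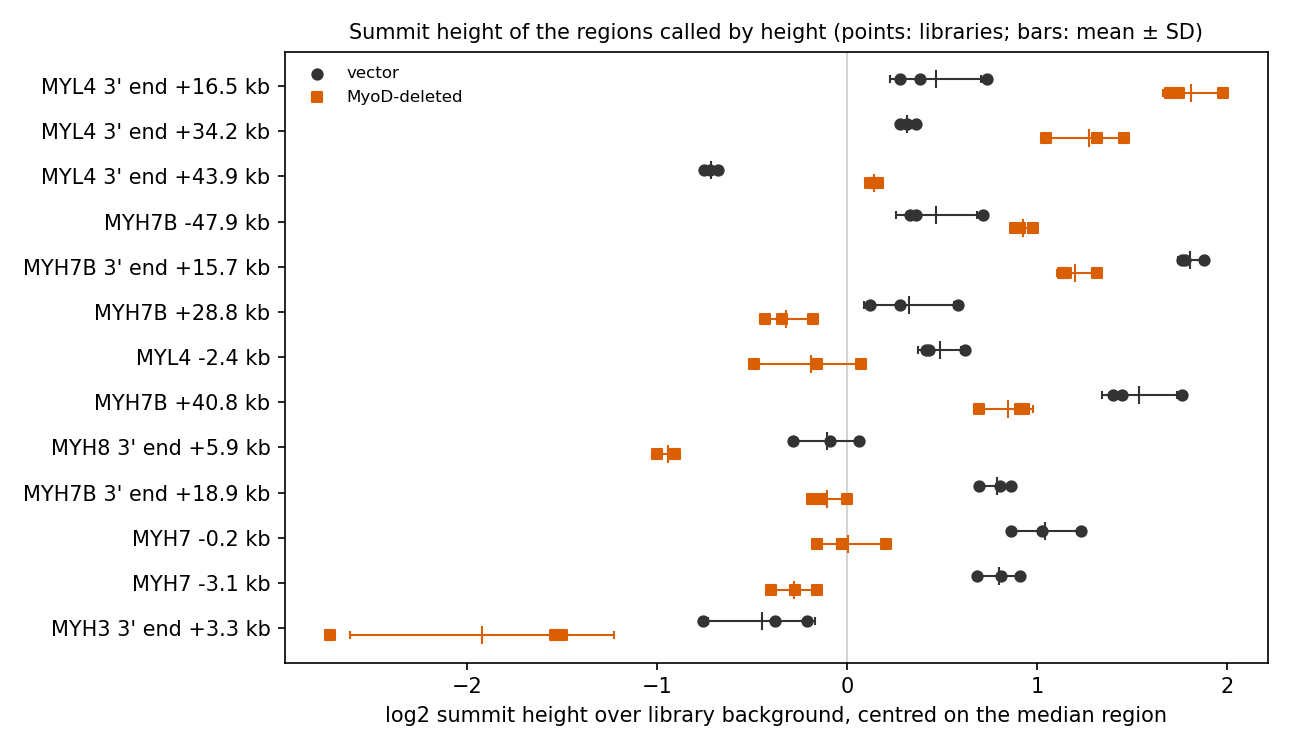
Centred log2 summit height (x axis) of the 13 regions called by height, with 1 point per library and bars for mean ± SD of 3 libraries. Vector libraries (circles) and MyoD-deleted libraries (squares) do not overlap in any row, from the region past MYH3 at the bottom to the MYL4 region at the top.

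MYL4 encodes the essential light chain of embryonic muscle and the atrium (ENSG00000198336.9, chromosome 17, 47200446 to 47223679, plus strand), and its regions moved in both directions. The upstream region at 47197486 to 47198551 had 108, 86 and 89 fragments in vector libraries, against 61, 47 and 61 in MyoD-deleted libraries. Its log2 height changed by −0.68 ± 0.17 (SE; adjusted p = 0.00541 from limma) and its rank by −8.36 percentile points (adjusted p = 0.402 from limma). The 3 regions inside the gene that were called in all libraries had log2 height changes of −0.22 to 0.31 and passed neither test. The most enriched region near MYL4 was at the 5′ end of CDC27, 11.1 kb upstream, with a height change of 0.01.

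The regions that rose lay past the 3′ end of MYL4, toward and inside ITGB3, an integrin gene. The intergenic region 16.5 kb past the 3′ end (47239789 to 47240708) had 135, 73 and 80 fragments in vector libraries, against 195, 260 and 221 in MyoD-deleted libraries. Every MyoD-deleted library was above every vector library even before any scaling. The rank rose from 75.2 ± 2.41 to 95.8 ± 2.60 percentiles (SD, n = 3 each; adjusted p = 0.00871 from limma) and the log2 height by 1.34 ± 0.13 (SE; adjusted p = 2.41e-06 from limma). This was the 1 myosin region that passed by rank with any library left out.

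In intron 1 of ITGB3, 2 regions rose and 1 fell in rank. The region 34.2 kb past MYL4 had 104, 68 and 82 fragments in vector and 120, 181 and 169 in MyoD-deleted libraries, with changes of 22.9 percentile points (adjusted p = 0.0421 from limma) and 0.95 in log2 height (adjusted p = 5.19e-05 from limma). The region 43.9 kb past MYL4 had 48, 35 and 40 against 65, 73 and 74 fragments, with changes of 24.97 percentile points (adjusted p = 0.0256 from limma) and 0.86 in log2 height (adjusted p = 0.000725 from limma). The rank of the former passed only with all libraries or without vector replicate 1 (adjusted p of 0.0682 to 0.139 without any other library). The rank of the latter did not pass without vector replicate 2 or 3, or MyoD-deleted replicate 1 or 2 (adjusted p of 0.084 to 0.0925). A region between them had a rank that fell by 5.92 percentile points (adjusted p = 0.0309 from limma). Its height changed by −0.13 centred and by 0.06 without centring (adjusted p = 0.667 and 0.828 from limma), and its rank passed without vector replicate 1 but not without any other library (adjusted p of 0.0659 to 0.109).

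MYL1 encodes the essential light chain of fast fibres, and MYLPF their regulatory light chain, and no region of either passed by rank or centred height. Of 3 tested regions of MYL1 (ENSG00000168530.16, chromosome 2, 210290150 to 210315174, minus strand), the nearest to the 5′ end and most enriched had 68, 32 and 35 against 42, 34 and 40 fragments. Its log2 height changed by −0.07 ± 0.21 (SE; adjusted p = 0.855 from limma). The region in intron 1, whose summit lay 1032 bp inside another annotated start of MYL1, had 39, 17 and 19 against 26, 47 and 31 fragments. Its log2 height changed by 0.60 (adjusted p = 0.0934 from limma), and by 0.79 without centring (adjusted p = 0.0132 from limma), so that its call depended on the centring. The 8 tested regions of MYLPF (ENSG00000180209.12, chromosome 16, 30370934 to 30377991, plus strand) had rank changes of −11.4 to 1.11 percentile points. At its 5′ end the vector libraries had 863, 591 and 696 fragments and the MyoD-deleted libraries 530, 690 and 680, which overlap, with a log2 height change of −0.10 ± 0.08 (SE; adjusted p = 0.418 from limma). The most enriched region of MYLPF, 0.395 kb past its 3′ end at the 5′ end of ZNF48, changed by −0.08 in log2 height.

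The regions that were lower by rank or height shared a sequence that the rule did not use, which the lost region of MYH7B did not hold. CAGCTG reads the same on both strands. It was found 100 bp or less from the summit in 10 of the 10 myosin regions that were lower by rank or height. It was found in 0 of the 4 that were higher. Of the 10, 9 were lower by height and 2 by rank. Over all tested regions, CAGCTG lay in 56.4% of those lower by rank and in 15.4% of those higher by rank. The windows of the lost and the gained region held neither CAGCTG nor any CANNTG, beside CAGCTG in 54.8% of all lost and 13.2% of all gained regions. CAGCTG lay in 22 of all 61 myosin regions (36.1%) and in 25.1% of all regions in the libraries. Among regions called in all 6 libraries, it lay in 42.1% of the myosin regions and in 27.8% of all. Of the 16 tested myosin regions with CAGCTG, 10 were lower by either measure, and the median log2 height change was −0.63. Of the 22 without it, 0 were lower and 4 were higher, and the median was 0.07. Over all tested regions, 27.2% of those with CAGCTG and 8.07% of those without were lower by either measure, with medians of −0.13 and 0.08. All of these shares come from the same 6 libraries and are given as a description.

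**Figure D4:**
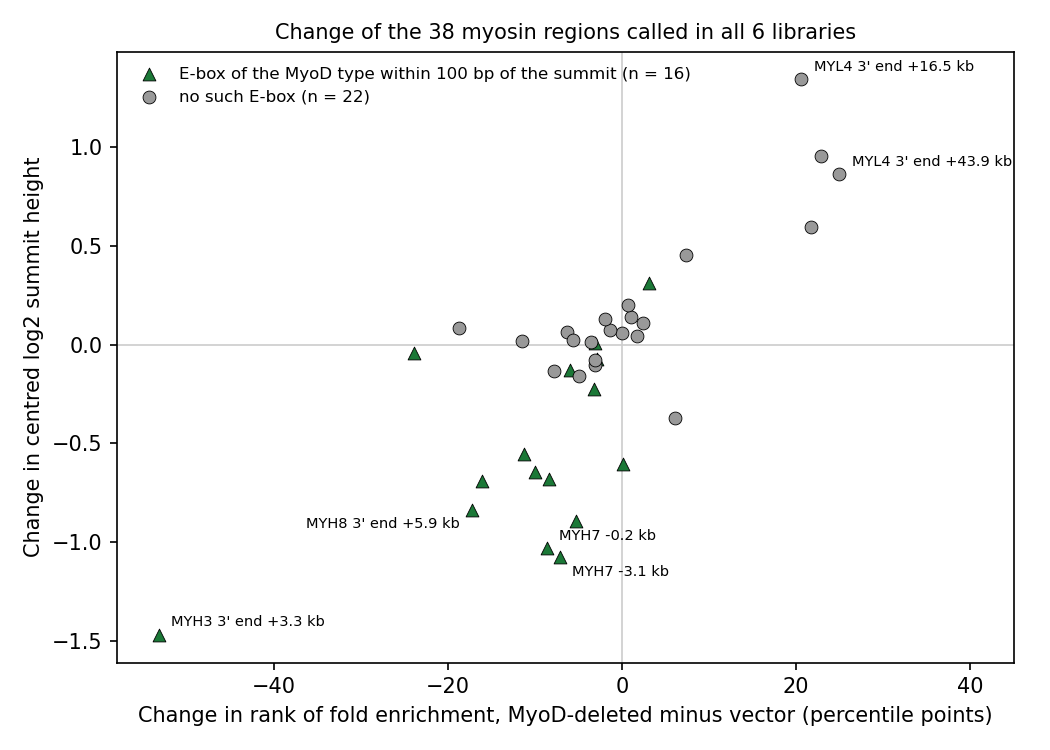
Change of the 38 myosin regions called in all 6 libraries, with the change in rank (x axis, percentile points) against the change in centred log2 summit height (y axis), MyoD-deleted minus vector. Triangles are regions with the E box CAGCTG within 100 bp of the summit and circles are regions without it, and every region with a height change under −0.4 is a triangle.

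Other motifs, searched on both strands in the same 201 bp windows, were spread differently. TGANTCA, which is wider than the core of an AP-1 site, lay in 3 of the 10 lower and 2 of the 4 higher myosin regions. It lay in 22.6% of all regions. GGAATG or CATTCC lay in 6 of the 10 lower and 1 of the 4 higher myosin regions, in 29.5% of the 61 and in 17.3% of all regions. Of all tested regions, 15.9% of those lower by rank and 24.2% of those higher by rank held it. The E box form CAGGTG or CACCTG lay in 1 of the 10 lower regions. It lay in 15.9% of all regions and in 33.8% of all tested regions lower by rank. The general E box CANNTG, which includes both forms above, lay in all 10 lower and in 0 of the 4 higher regions. CANNTG lay in 71.4% of all regions, in 91.5% of all tested regions lower by rank and in 64.2% of those higher by rank.

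Regions were also split by the nearest protein-coding 5′ end. It belonged to a myosin gene followed here for 25 regions and to another gene for 36. The other genes included MYH13, a further striated muscle myosin gene, and GSS, which shares an open 5′ end with MYH7B. Over all tested regions, 12.8% were lower and 11.4% higher by height. Of the 14 tested regions nearest to the 5′ end of a myosin gene followed here, 4 were lower and 0 higher by height. Of the other 24 tested regions, 5 (20.8%) were lower and 4 (16.7%) higher. These 5 lower regions were that past the 3′ end of MYH8, nearest to MYH13, and 4 of MYH7B, nearest to GSS. The split therefore does not set regions of myosin genes apart from regions of other genes. In gene bodies or up to 5 kb upstream there were 19 regions, of which 12 were tested, 5 were lower and 0 higher by height, and none passed by rank. Regions more than 2 kb from any protein-coding 5′ end made up 26 of the 38 tested, and of these 8 were lower and 4 higher by height. Of the 12 within 2 kb, 1 (8.33%) was lower, the region at the 5′ end of MYH7, and 0 were higher. Shares by position were not counted over all regions, and these small sets were not tested against each other.

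The same counts were made for other myosin and thick filament genes under the same rule, without the regions above. The shares of all tested regions were 12.8% lower and 11.4% higher by height, and 4.67% lower and 4.12% higher by rank. At 24 other genes of striated muscle, such as TTN, MYBPC2 and SMYD1, 26 of 126 tested regions (20.6%) were lower and 11 (8.73%) higher by height, and 8 were lower and 7 higher by rank. Without centring, 14 (11.1%) were lower and 21 (16.7%) higher by height, beside 8.03% and 24.7% of all tested regions. Of their 246 regions, 5 (2.03%) were gained and 4 (1.63%) lost, beside 4.56% and 1.78% of all regions. At 8 genes for non-muscle and smooth muscle myosins, such as MYH9 and MYH11, 6 of 58 tested regions (10.3%) were lower and 9 (15.5%) higher by height, and 3 were lower and 5 higher by rank. Without centring, 6 were lower and 16 (27.6%) higher by height. Of their 116 regions, 1 (0.862%) was gained and 2 (1.72%) were lost. Some regions near MYL6 and MYL6B, or near MYOM1 and MYL12A, belong to both lists, and the lists were not tested against each other.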

How the data were processed

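ATAC-seq libraries of RH30 cells (3 vector, 3 MyoD-deleted) were grouped by the sample labels. Per the methods, the authors mapped read pairs to hg38 (Rsubread), selected proper pairs (GenomicAlignments) and called peaks with MACS2. The deposited files hold 1 peak list per library. The submitters' processing notes also name bcl2fastq 2.20 and FastQC. The deposited score is the −log10 q times 10, truncated, in 99.9% of peaks. The authors' fold enrichment sets the pileup at a summit over its local background, as a ratio with no scaling across libraries. The −log10 p and −log10 q deposited with it describe the same summit. The authors' own comparison, with DESeq2 on read counts, was not used.

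In each library 1 mitochondrial peak was left out. The pileup and local background of every peak were recovered from the deposited fold enrichment and −log10 p under the Poisson model of MACS2, which gave a whole number within a relative tolerance of 1e-04 for 100% of peaks. Read totals are not in the lists, so counting error is not given. Overlapping or adjoining peaks were merged (105569 regions, the same number from bedtools 2.31.1), and a region took the highest value of its peaks in each library. The 47885 regions called in all 6 libraries were fitted with limma 3.58.1 (lmFit, eBayes with a trend, no block) on inverse-normal ranks of fold enrichment, the main test, and on centred log2 summit height, an alternative shown beside it. Benjamini-Hochberg adjustment was over all 47885. Same-numbered libraries of the 2 groups did not deviate together (correlations −0.0411, −0.0976 and 0.0414).

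Genes came from GENCODE version 44. Named regions are those gained, lost or past an adjusted p of 0.05, the nearest to each 5′ end and the most enriched of each gene. The genes, lists and tests were chosen with earlier results of these data known. Alternatives were equal numbers of peaks (63140), a −log10 q minimum of 5, a call only where peaks cover 50% or more of a region, ranks of −log10 p, no centring, a replicate block, a 5 kb upstream rule and each library left out. Scripts were tested on simulated data. Python 3.11.15 and R 4.3.3 were used.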

Additional observations from a re-analysis of the deposited data

How the results depend on the processing

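The number of myosin regions that were lower rested on the measure. It was 2 by rank, 9 by summit height, 8 by height without centring and 9 by rank of −log10 p. It was 1 with a −log10 q of at least 5, with equal numbers of peaks or with the replicate block, and 0 by rank in gene bodies or up to 5 kb upstream. With each library left out it was 0 to 2 by rank. The number higher was 3 by rank, 5 by height without centring, 0 in gene bodies or up to 5 kb upstream, and 1 to 4 with each library left out. By height, with each library left out, 8 to 10 were lower and 3 to 5 higher. The replicate block kept all 13 calls by height and 3 of the 5 by rank, and over all regions it gave 1361 higher and 1510 lower by rank. Same-numbered libraries shared only a number. The region between the ITGB3 regions that rose reversed to a log2 height change of 0.062 without centring. The median rank change of −3.14 percentile points was −1.41 with rank of −log10 p and between −4.12 and −2.97 with each library left out. The median rank of the myosin regions in a library had a pooled SD of 3.12 percentiles between libraries of a group. That SD is not the error of the median change.

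Gained and lost regions were 1 each. With each library left out, 1 to 2 were gained (2 without MyoD-deleted replicate 1 or 2) and 1 to 2 were lost (2 without vector replicate 2 or 3 or MyoD-deleted replicate 1). In gene bodies or up to 5 kb upstream 0 were gained. Over all regions, 1973 were higher by rank (622 to 2455 with each library left out), 5438 by height, 11821 without centring and 4324 by rank of −log10 p. By rank 2234 were lower (831 to 1906), 6149 by height, 3843 without centring and 5216 by rank of −log10 p. With equal numbers of peaks 2831 were gained and 3250 lost, against 4816 and 1883, and 5285 to 8501 were gained with each library left out, with 8501 without vector replicate 1 and 7457 without MyoD-deleted replicate 1. The causes were not tested. Depth was not known, so regions without a call may be open below the caller's threshold.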
